A study of Homo sapiens with 10 samples.

Results

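The nucleosome remodelling and deacetylase (NuRD) complex was followed at the transcript level through its 10 subunit genes that do not encode a CHD remodeller, namely *MTA1*, *MTA2*, *MTA3*, *HDAC1*, *HDAC2*, *GATAD2A*, *GATAD2B*, *RBBP4*, *RBBP7* and *MBD3*. The genes were chosen by symbol, and all 10 were present among the 19695 genes in the count tables. RNA-seq was performed in T47D cells, an established human luminal breast cancer cell line, 72 h after transfection with control siRNA, *TRPS1* siRNA or *CHD4* siRNA, with 2 libraries per group. All groups received their siRNA with the same lipid reagent, and the labels name no other modification. The labels and the study's RNA interference methods name an siRNA for *CHD4*, whereas its RNA-seq methods name an shRNA. TRPS1 ChIP-seq in the same cell line, with 2 ChIP and 2 input libraries, gave 1 list of peaks.

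NuRD couples ATP-dependent nucleosome remodelling to histone deacetylation and is best known for repressing transcription. The CHD proteins (CHD3, CHD4 and CHD5) supply the remodelling ATPase. HDAC1 and HDAC2 are the deacetylases, the MTA proteins form the scaffold that binds and activates them, RBBP4 and RBBP7 are WD40-repeat histone chaperones, MBD2 or MBD3 joins the complex as the methyl-CpG-binding-domain subunit, and GATAD2A or GATAD2B bridges the deacetylase module to the CHD remodeller. TRPS1 is an atypical GATA-type zinc finger protein that represses transcription and is abundant in luminal breast cells. The study asked whether TRPS1 represses its targets through a NuRD complex that holds CHD4 and MTA2. Only transcripts were counted here, not subunit protein or the assembled complex.

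The targeted genes were examined first. *TRPS1* gave 19723 and 30078 counts in the control libraries, 12160 and 10996 in the *TRPS1* siRNA libraries and 26252 and 19786 in the *CHD4* siRNA libraries. Its log2 fold change upon *TRPS1* siRNA was -0.97 (SE 0.39, unadjusted p = 0.0459, adjusted p = 0.659), and the groups did not overlap. The value was -0.61 without control replicate 2 (unadjusted p = 0.0908) and -0.66 without *TRPS1* siRNA replicate 2 (unadjusted p = 0.325). The unadjusted p was 0.0705 with library sizes alone, 0.0612 with over 2 CPM in every library and 0.0547 without *TRPS1* siRNA replicate 1. *CHD4* was at 300 and 285 CPM in the controls (counts relative to library size, scaled with TMM factors over all 6 libraries), at 302 and 268 upon *TRPS1* siRNA and at 95.8 and 54.3 upon *CHD4* siRNA. It fell by 1.96 on the log2 scale upon *CHD4* siRNA (SE 0.42, unadjusted p = 0.00186, adjusted p = 0.784). The value was -1.58 without *CHD4* siRNA replicate 2, where the unadjusted p was 0.0574. Its log2 fold change upon *TRPS1* siRNA was -0.03 (SE 0.31).

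Totals ranged from 10333138 to 14668358 counts per library. Control replicate 1 stood apart from the other 5 libraries. The correlation of log2 CPM between replicates was 0.840 for control siRNA, 0.974 for *TRPS1* siRNA and 0.965 for *CHD4* siRNA, so each knockdown was compared with a control group of wide spread and fold changes against control are given with and without that library where it decides them. All 8 luminal markers (*ESR1*, *PGR*, *GATA3*, *FOXA1*, *KRT8*, *KRT18*, *KRT19* and *EPCAM*) were counted in every library, with a summed level of 13489 and 10513 CPM in the controls, 5345 and 5206 upon *TRPS1* siRNA and 6111 and 4528 upon *CHD4* siRNA. The values of the single markers differed in size and sign. Upon *TRPS1* siRNA the log2 fold change was -1.88 for *KRT8*, -1.39 for *KRT19* and -0.92 for *KRT18*. It was -0.68 for *PGR*, -0.61 for *ESR1*, -0.48 for *GATA3*, -0.25 for *FOXA1* and 0.37 for *EPCAM*. Upon *CHD4* siRNA it was -1.85, -1.43 and -1.45 for the same keratins. The other values there were -0.88 for *GATA3*, -0.61 for *ESR1*, -0.07 for *PGR*, 0.21 for *FOXA1* and 0.28 for *EPCAM*. By the threshold given below, *KRT8* and *KRT19* were lower upon both knockdowns and *KRT18* upon *CHD4* siRNA. *KRT5*, *KRT14*, *COL1A2* and *PTPRC* had at most 6 counts in any library, *VIM* ranged from 1.12 to 2.87 CPM apart from 17.3 CPM in *TRPS1* siRNA replicate 1, and *COL1A1* ranged from 59.2 to 156 CPM. The part of the markers in the results below was not tested.

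Throughout, "rose" and "fell" mean a fold change over 2 with an unadjusted p under 0.05 in edgeR's quasi-likelihood F-test, which is the threshold of the study. This test was run on genes over 2 CPM in at least 2 libraries, with 2 libraries per group and no replicate block. As run so, no gene passed an adjusted p under 0.05 in any of the 3 comparisons. Without the CPM filter some genes did, upon *CHD4* siRNA and between the knockdowns. The unadjusted p was under 0.05 for 902 genes upon *TRPS1* siRNA, 769 upon *CHD4* siRNA and 2023 between the knockdowns, and DESeq2 called 37, 50 and 456 genes at an adjusted p under 0.05. As the labels do not say that replicates were separate cultures, p-values measure only the spread between these libraries. The knockdown comparisons share both control libraries.

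Upon *TRPS1* siRNA, 1 of the 10 subunit genes fell, *GATAD2A*, and none rose, where 3.17% of the 12921 genes tested fell and 2.7% rose. Upon *CHD4* siRNA none of the 10 rose or fell, where 2.6% of 12918 genes rose and 2.85% fell, and none reached an unadjusted p under 0.05, as 5.95% of genes did (6.98% upon *TRPS1* siRNA, with *GATAD2A* the only member). Between the knockdowns, 1 of the 10 was higher upon *CHD4* siRNA by the same threshold, again *GATAD2A*, where 2.12% of 13143 genes were higher and 1.56% lower, and *GATAD2A* and *MTA2* reached an unadjusted p under 0.05, as 15.4% of genes did. For some members the values against control depended on the control library. Upon *TRPS1* siRNA the log2 fold changes of *GATAD2A*, *GATAD2B* and *HDAC2* were -2.33, -2.52 and 1.20 without control replicate 2. Without control replicate 1 they were -1.43, -0.03 and -0.04. The groups did not overlap for 5, 4 and 4 of the 10 genes in the 3 comparisons, where 44.1%, 39.8% and 46.9% of all tested genes did not overlap. The median log2 fold change of the 10 genes was -0.25, -0.04 and 0.03, beside -0.02, -0.02 and -0.00 for all genes. The members are described below in turn, beginning with *GATAD2A*.

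**Figure D1:**
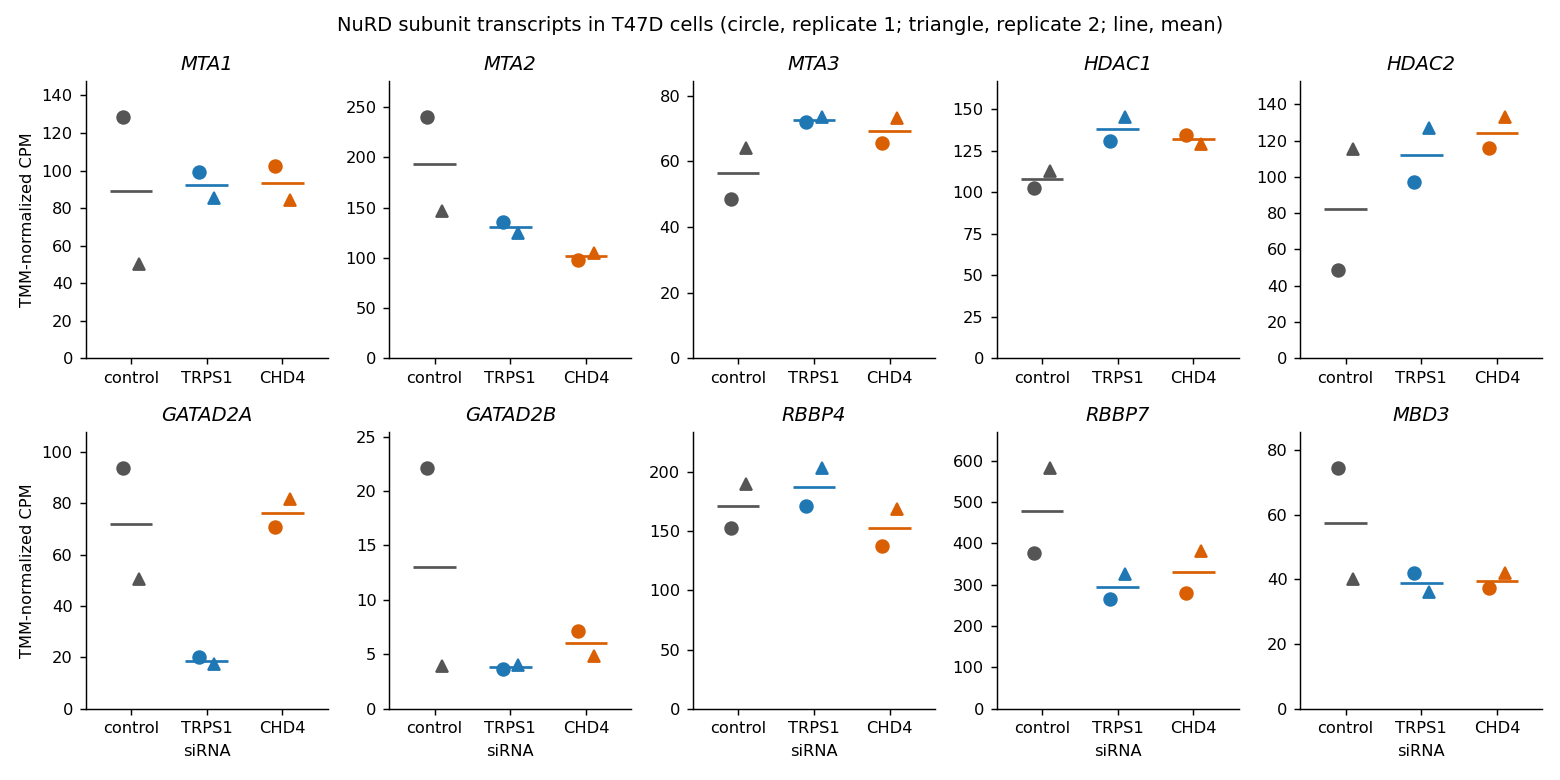
Level of each of the 10 NuRD subunit genes in TMM-normalized CPM (vertical axes, each from 0) in the 6 RNA-seq libraries, by siRNA (horizontal axes); circles are replicate 1, triangles replicate 2 and lines the group means. *GATAD2A* is at 20.1 and 17.3 CPM upon *TRPS1* siRNA and at 50.4 CPM or more in the other 4 libraries, and control replicate 1 lies far from replicate 2 for *MTA1*, *HDAC2* and *GATAD2B*.

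*GATAD2A* encodes p66α, a bridge between the deacetylase module and the CHD remodeller. It lies on the plus strand at chr19:19385843-19508932 (GRCh38.p14). It gave 1280 and 668 counts in the controls, 210 and 263 upon *TRPS1* siRNA and 758 and 1020 upon *CHD4* siRNA. On the TMM-normalized scale these were 93.8 and 50.4 CPM, 20.1 and 17.3 CPM, and 70.7 and 81.8 CPM. Both *TRPS1* siRNA libraries lay below all 4 others, and the *CHD4* siRNA libraries lay within the range of the controls. *GATAD2A* fell by 1.94 on the log2 scale upon *TRPS1* siRNA, a 3.85-fold lower level (SE 0.44, 95% interval -3.00 to -0.89, unadjusted p = 0.00368, adjusted p = 0.659), which ranked 30 of 12921 genes by p. Upon *CHD4* siRNA the log2 fold change was 0.09 (SE 0.43, 95% interval -0.91 to 1.09, unadjusted p = 0.84), an interval that includes a 2-fold difference in the upward direction.

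The direct comparison of both knockdowns does not use the controls. *GATAD2A* was 4.10-fold higher upon *CHD4* siRNA than upon *TRPS1* siRNA (log2 fold change 2.04, SE 0.18, 95% interval 1.60 to 2.47, unadjusted p = 2.97e-05, adjusted p = 0.0903). It ranked 3 of 13143 genes by p, and the adjusted p of 0.0903 was the smallest in this comparison and shared by 61 genes. The difference therefore missed an adjusted p under 0.05 with the quasi-likelihood test as reported, with the CPM filter and without a replicate block. It passed with edgeR's likelihood ratio test (adjusted p = 2.41e-12) and DESeq2 (adjusted p = 1.92e-13), and over all 12 alternatives its adjusted p ranged from 3.89e-46 to 0.937. Its log2 fold change stayed between 1.94 and 2.14.

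Against control the size of the *GATAD2A* difference depended on the control library. Without control replicate 1 the log2 fold change upon *TRPS1* siRNA was -1.43 (adjusted p = 0.032), and without control replicate 2 it was -2.33 (adjusted p = 0.000775). These 3-library fits take the lone control to vary as the knockdown libraries do. It was called lower under all 12 alternatives, with an adjusted p of 0.0425 by the likelihood ratio test, 0.0273 by DESeq2 and up to 1 without a *TRPS1* siRNA library.

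**Figure D2:**
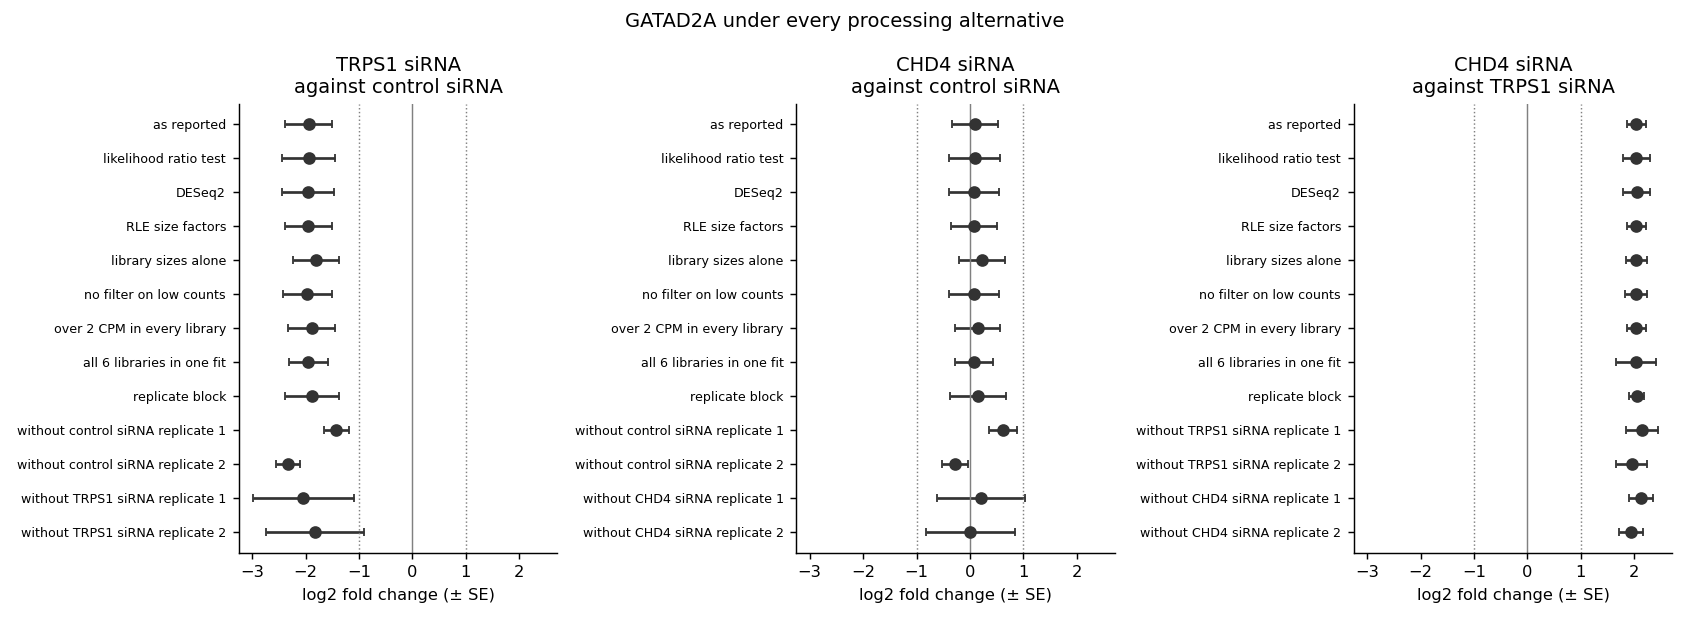
Log2 fold change of *GATAD2A* (horizontal axes; error bars, SE) as reported and under the 12 processing alternatives, in the 3 comparisons; dotted lines mark a 2-fold change. The values against control range from -2.33 to -1.43 upon *TRPS1* siRNA and from -0.29 to 0.62 upon *CHD4* siRNA, and those between the knockdowns from 1.94 to 2.14.

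Its paralog *GATAD2B*, which encodes p66β, had far fewer counts. There were 302 and 52 in the controls, 38 and 61 upon *TRPS1* siRNA and 77 and 60 upon *CHD4* siRNA. Control replicate 1 (22.1 CPM) was alone high, and the other 5 libraries lay between 3.64 and 7.19 CPM. The log2 fold change was -1.76 upon *TRPS1* siRNA (SE 0.83, unadjusted p = 0.0739) and -1.11 upon *CHD4* siRNA (SE 0.80, unadjusted p = 0.204). Without control replicate 1 the values were -0.03 and 0.63, so no direction against control is given for *GATAD2B*. Between the knockdowns it was 0.65 higher upon *CHD4* siRNA (log2, SE 0.33, 95% interval -0.17 to 1.47, unadjusted p = 0.0992), with groups that did not overlap.

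The *GATAD2A* count overlaps *MIR640* and a long non-coding RNA in the annotation, and the *GATAD2B* count overlaps a pseudogene. Whether reads were counted by strand is not given in the sources used here.

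For the promoter of *GATAD2A*, RefSeq (GRCh38.p14) gives 2 windows that each run from 250 bases before an annotated start to 50 after it. They are shown because *GATAD2A* carries the largest difference among the subunits, and the first window of *MTA2* is shown beside them because *MTA2* lies closest to a TRPS1 peak. All are written 5′ to 3′ in the direction of transcription, with CpG dinucleotides in capitals.
GATAD2A window 1, chr19:19385593-19385892, plus strand: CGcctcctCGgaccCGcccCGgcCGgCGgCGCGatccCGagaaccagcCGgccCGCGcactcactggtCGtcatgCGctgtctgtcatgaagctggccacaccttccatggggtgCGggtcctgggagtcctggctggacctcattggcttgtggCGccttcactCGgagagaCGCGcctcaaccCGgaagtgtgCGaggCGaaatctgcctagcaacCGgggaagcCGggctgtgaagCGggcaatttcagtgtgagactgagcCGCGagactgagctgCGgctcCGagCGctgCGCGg
GATAD2A window 2, chr19:19405425-19405724, plus strand: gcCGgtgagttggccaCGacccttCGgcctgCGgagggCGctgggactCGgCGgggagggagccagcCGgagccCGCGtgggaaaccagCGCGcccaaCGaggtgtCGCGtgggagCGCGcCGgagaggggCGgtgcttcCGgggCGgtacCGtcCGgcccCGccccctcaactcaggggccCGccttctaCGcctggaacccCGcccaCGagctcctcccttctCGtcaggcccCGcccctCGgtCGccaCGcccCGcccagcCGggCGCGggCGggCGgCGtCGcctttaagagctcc
MTA2 window 1, chr11:62601816-62602115, minus strand: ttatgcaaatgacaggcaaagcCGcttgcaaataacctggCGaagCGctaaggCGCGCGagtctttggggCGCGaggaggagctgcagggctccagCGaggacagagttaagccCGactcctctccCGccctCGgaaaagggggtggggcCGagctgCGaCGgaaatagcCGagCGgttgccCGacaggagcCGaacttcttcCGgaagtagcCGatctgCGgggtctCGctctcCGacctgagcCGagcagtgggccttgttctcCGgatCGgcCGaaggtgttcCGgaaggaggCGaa
The windows hold 32, 41 and 30 CpG dinucleotides. The 15 windows of the 10 subunit genes were rich in CpG, with a median of 38 per 300 bases (6 to 54) and a median GC content of 73.7%, where all 35116 windows of the reference had medians of 14 and 58.7%. The core recognised by GATA-type zinc fingers was searched on both strands as the letters AGATAA, with AGATAG as the variant in the last base, TGATAA as the variant in the first and TGATAG as the variant in both. None of the 15 windows held any of these, where 25.0% of all windows did. These letters are mostly A and T, and the 25.0% is not matched to the higher GC content of the 15 windows. Windows of the same gene can share bases, and the absence of these letters says nothing about binding outside the windows.

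MTA1, MTA2 and MTA3 are alternative scaffolds of NuRD, and *MTA2* (chr11:62593214-62601865, minus strand) is the one the study places with CHD4 and TRPS1. Its level was 240 and 146 CPM in the controls, 136 and 125 CPM upon *TRPS1* siRNA and 98.0 and 105 CPM upon *CHD4* siRNA. Each library of a group lay below each library of the group before it in that order. The log2 fold change was -0.56 upon *TRPS1* siRNA (SE 0.37, unadjusted p = 0.176) and -0.92 upon *CHD4* siRNA (SE 0.40, 95% interval -1.84 to 0.01, unadjusted p = 0.0511, adjusted p = 0.792). Between the knockdowns *MTA2* was lower upon *CHD4* siRNA by 0.35 on the log2 scale (log2 fold change -0.35, SE 0.14, 95% interval -0.69 to -0.01, unadjusted p = 0.0443, adjusted p = 0.306), a difference under 2-fold at a p that 15.4% of all genes reached. Without control replicate 1 the log2 fold changes against control were -0.16 and -0.51, and without control replicate 2 they were -0.88 and -1.23.

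*MTA1* did not show this order. It was at 128 and 50.02 CPM in the controls, 99.4 and 85.2 CPM upon *TRPS1* siRNA and 102 and 84.3 CPM upon *CHD4* siRNA, and both knockdown groups lay inside the range of the controls. Against control the log2 fold change of *MTA1* was 0.05 upon *TRPS1* siRNA (SE 0.49) and 0.07 upon *CHD4* siRNA (SE 0.50). Upon *TRPS1* siRNA it was 0.89 without control replicate 1 and -0.47 without control replicate 2. With single libraries left out it ranged from -0.45 to 0.92 upon *CHD4* siRNA, so no direction against control is given for *MTA1*. The log2 fold change between the knockdowns was 0.02 (SE 0.17, 95% interval -0.40 to 0.44). *MTA3* was at 48.6 and 64.0 CPM in the controls, 71.8 and 73.4 CPM upon *TRPS1* siRNA and 65.4 and 73.2 CPM upon *CHD4* siRNA. Its knockdown libraries all lay above both controls, with log2 fold changes of 0.37 (SE 0.34, unadjusted p = 0.313) and 0.31 (SE 0.38, unadjusted p = 0.444) that did not pass the test.

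A share within a library does not depend on how libraries are scaled. Of the counts of the 3 MTA genes, *MTA2* took 57.6% and 56.2% in the controls, 44.2% and 44.1% upon *TRPS1* siRNA and 36.9% and 40.0% upon *CHD4* siRNA (means 56.9% ± 0.979, 44.1% ± 0.103 and 38.5% ± 2.22, SD, n = 2). Control replicate 1, which stood apart in level, was close to replicate 2 in this share. The controls differed in the shares of *MTA1* (30.8% and 19.2%) and *MTA3* (11.6% and 24.6%), in opposite directions. These are shares of reads, not corrected for transcript length, so they can be compared between conditions but do not say which paralog was most abundant. The *MTA2* to *MTA1* count ratio was 1.87 and 2.92 in the controls, 1.37 and 1.47 upon *TRPS1* siRNA and 0.959 and 1.25 upon *CHD4* siRNA. The *MTA3* to *MTA2* ratio was 0.202 and 0.438, 0.529 and 0.587, and 0.668 and 0.696 in the same order. Neither ratio overlapped between any pair of groups, and each two-sided exact permutation test gave p = 0.3333, the smallest that 2 libraries against 2 allow. Lack of overlap was common, at 3, 4 and 5 of the 7 paralog ratios in the 3 comparisons. It also held for *MBD3* to *MBD2* upon *CHD4* siRNA against control and between the knockdowns. For *GATAD2B* to *GATAD2A* it held between the knockdowns. The *MTA3* to *MTA1* ratio overlapped in all 3 comparisons.

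**Figure D3:**
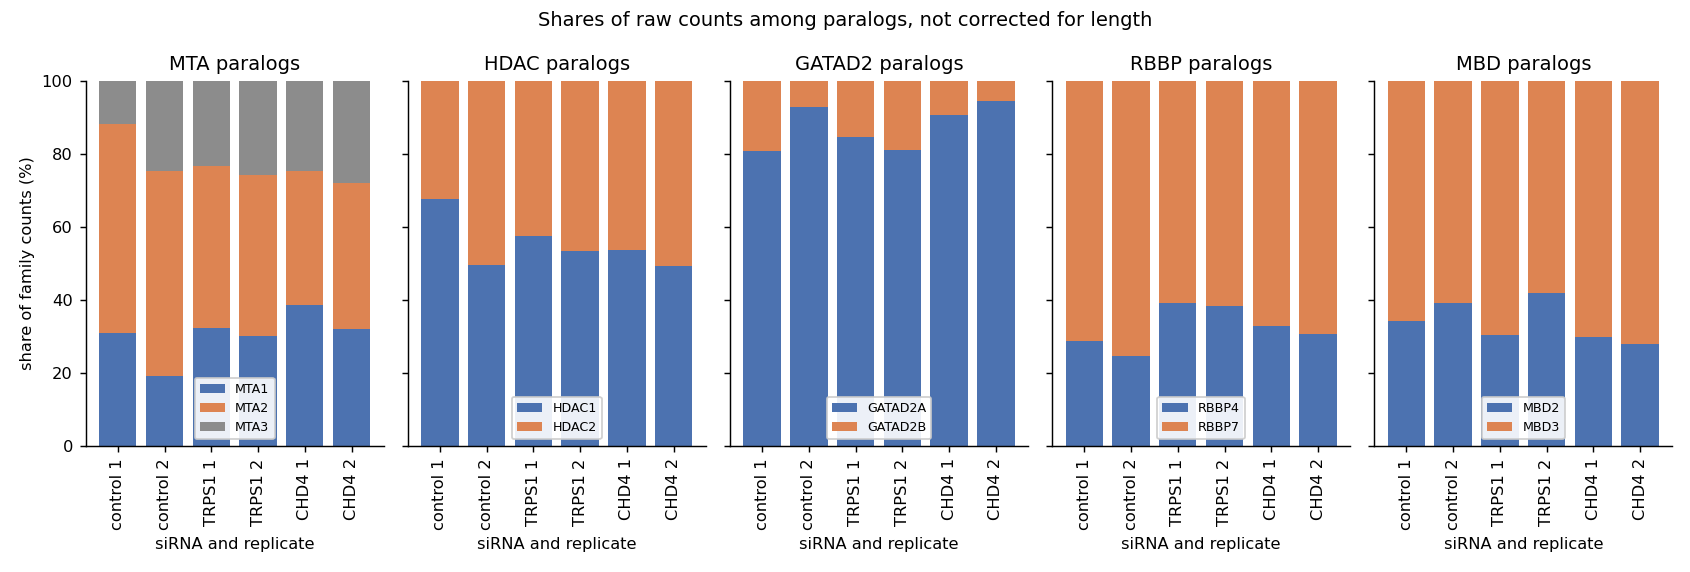
Percentage of the raw counts of each paralog family (vertical axis, stacked bars) taken by each gene in the 6 RNA-seq libraries (horizontal axes), not corrected for gene length. The *MTA2* share is 56.2% or more in the controls, 44.1 and 44.2% upon *TRPS1* siRNA and 40.0% or less upon *CHD4* siRNA, and the *RBBP7* share is lowest upon *TRPS1* siRNA (60.8 and 61.6%).

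The 3 genes whose log2 levels over the 6 libraries were most like those of *MTA2* were *EBNA1BP2* (Pearson r = 0.995), *SPOCD1* (0.992) and *C14orf79* (0.992). Among the 13268 genes compared, 674 (5.08%) had an r over 0.9 and none of the other subunits did. The 6 points include control replicate 1, and over the 5 libraries without it the values were 0.988, 0.967 and 0.983.

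*RBBP7* and *RBBP4* encode histone-binding chaperones that NuRD shares with SIN3, PRC2 and, for RBBP4, the chromatin assembly factor CAF-1. *RBBP7* (chrX:16844341-16870362, minus strand) was at 376 and 583 CPM in the controls, 265 and 326 CPM upon *TRPS1* siRNA and 281 and 381 CPM upon *CHD4* siRNA. The *TRPS1* siRNA libraries lay below both controls, and those of *CHD4* siRNA overlapped them. The log2 fold change was -0.69 (SE 0.36, unadjusted p = 0.0992) and -0.53 (SE 0.39, unadjusted p = 0.216). Without control replicate 1 the values were -0.97 (unadjusted p = 0.0018, adjusted p = 0.0575) and -0.80 (unadjusted p = 0.0273), and without control replicate 2 they were -0.34 and -0.18. For *RBBP7* the difference between the knockdowns was 0.17 on the log2 scale (SE 0.21, 95% interval -0.34 to 0.67).

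*RBBP4* was at 152 and 190 CPM, 171 and 203 CPM, and 137 and 169 CPM in the same order of groups. It was lower upon *CHD4* siRNA than upon *TRPS1* siRNA in both libraries (log2 fold change -0.29, SE 0.17, 95% interval -0.71 to 0.14, unadjusted p = 0.153). The ratio of *RBBP7* to *RBBP4* counts was 2.47 and 3.07 in the controls, 1.55 and 1.60 upon *TRPS1* siRNA and 2.05 and 2.26 upon *CHD4* siRNA. This ratio was lowest upon *TRPS1* siRNA, with *CHD4* siRNA between it and the controls and no overlap in any pair of groups (exact permutation p = 0.3333 in each). The annotation has *RBBP7* overlapping *TXLNG* and *RBBP4* overlapping *SYNC*. How reads in these overlaps were counted is not given in the sources used here.

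*HDAC1* and *HDAC2* encode the catalytic subunits. *HDAC1* was at 103 and 113 CPM in the controls, 131 and 145 CPM upon *TRPS1* siRNA and 135 and 129 CPM upon *CHD4* siRNA. All knockdown libraries lay above both controls, and the log2 fold changes of 0.36 (SE 0.32, unadjusted p = 0.297) and 0.30 (SE 0.35, unadjusted p = 0.425) did not pass the test. Between the knockdowns the difference was -0.06 (SE 0.14, 95% interval -0.41 to 0.29).

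*HDAC2* was at 48.9 and 116 CPM, 97.2 and 127 CPM, and 116.0 and 133 CPM. The low value was that of control replicate 1, and the log2 fold change upon *TRPS1* siRNA went from 0.45 (SE 0.48) with that library to -0.04 without it. Upon *CHD4* siRNA it went from 0.60 (SE 0.48) to 0.13. *HDAC2* took between 32.2 and 50.8% of the counts of the pair, and the ratio of both genes overlapped in every comparison.

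*MBD3* encodes the methyl-CpG-binding-domain subunit of this list, which binds methylated DNA poorly, unlike its paralog MBD2. It was at 74.4 and 40.1 CPM in the controls, 41.8 and 36.0 CPM upon *TRPS1* siRNA and 37.3 and 41.9 CPM upon *CHD4* siRNA. Only control replicate 1 was high, and the log2 fold changes of -0.55 (SE 0.42, unadjusted p = 0.232) and -0.52 (SE 0.44, unadjusted p = 0.271) became -0.04 and 0.00 without it. The difference between the knockdowns was 0.03 (SE 0.17, 95% interval -0.38 to 0.45).

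*MBD2* itself was at 38.7 and 25.7 CPM, 18.3 and 25.9 CPM, and 15.9 and 16.3 CPM. It was lower upon *CHD4* siRNA than in every other library (log2 fold change against control -0.99, SE 0.42, unadjusted p = 0.0487, adjusted p = 0.792), just under a 2-fold change. *MBD3* made up 65.8 and 61.0% of the *MBD2* and *MBD3* counts in the controls, 69.5 and 58.2% upon *TRPS1* siRNA and 70.2 and 72.0% upon *CHD4* siRNA.

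**Figure D4:**
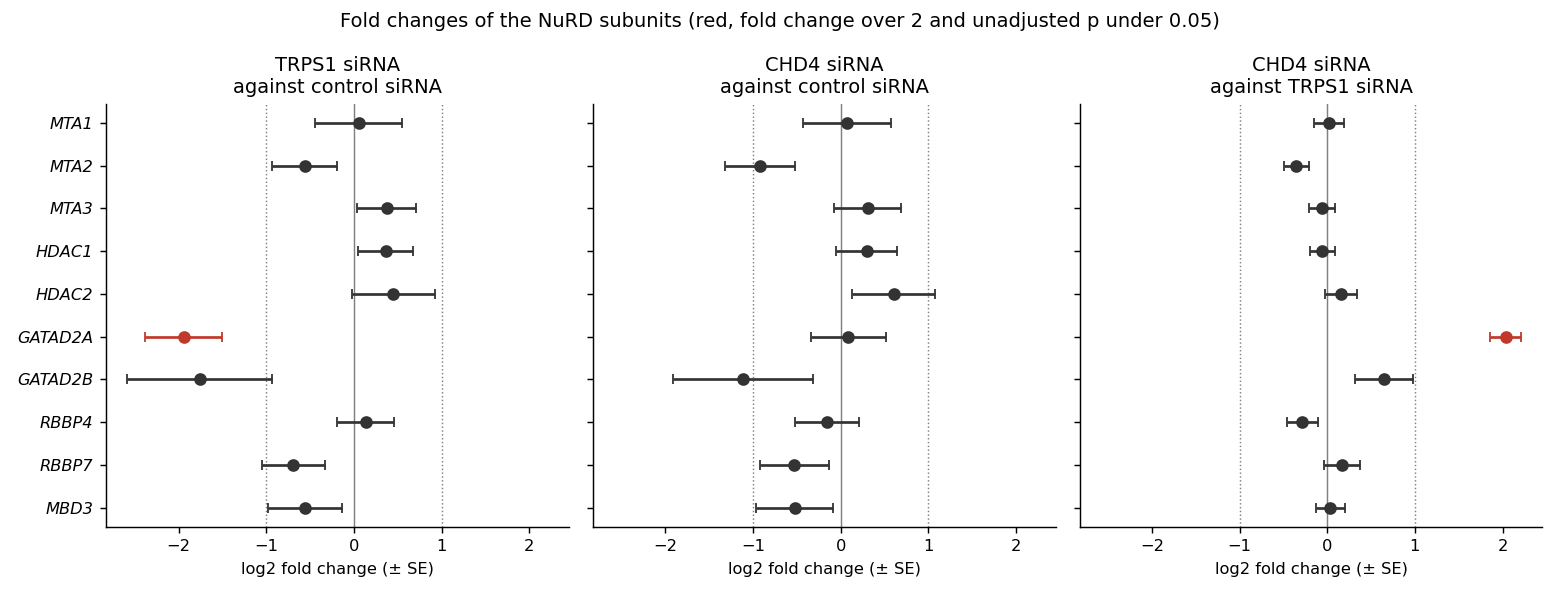
Log2 fold change with SE (horizontal axes) of the 10 NuRD subunit genes (rows) in the 3 comparisons, with dotted lines at a 2-fold change and red for a fold change over 2 with an unadjusted p under 0.05. *GATAD2A* is red upon *TRPS1* siRNA (-1.94) and between the knockdowns (2.04), and the other 9 genes lie between -0.35 and 0.65 in the comparison that does not use the controls.

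Between the knockdowns errors were smaller than against control. The SE of the 10 genes ranged from 0.14 to 0.33, beside 0.32 to 0.83 for *TRPS1* siRNA and 0.35 to 0.80 for *CHD4* siRNA against control. For *MTA1*, *MTA2*, *MTA3*, *HDAC1*, *HDAC2*, *RBBP4*, *RBBP7* and *MBD3* the 95% interval of the difference between the knockdowns excluded a 2-fold change in either direction, and for *GATAD2B* it did not.

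The other genes of the complex were counted beside the 10. A list of 19 further NuRD subunits and associated proteins included the CHD genes, *MBD2*, *CDK2AP1* and the SALL, ZFPM and BCL11 zinc finger genes. Of its 16 tested genes, 1 rose and none fell upon *TRPS1* siRNA, where 2.7% of all tested genes rose and 3.17% fell. Their median log2 fold change was -0.23, beside -0.02 for all genes. Upon *CHD4* siRNA none of 15 rose and 1 fell, *CHD4* itself, with a median of -0.30, beside -0.02 for all genes. There, 2.6% of all tested genes rose and 2.85% fell. Between the knockdowns none of 16 was higher upon *CHD4* siRNA by the same threshold and 1 was lower, again *CHD4*, where 2.12% and 1.56% of all tested genes were. The gene that rose upon *TRPS1* siRNA was *SALL4*, a zinc finger factor that binds NuRD, at 20 and 11 counts in the controls and 54 and 63 upon *TRPS1* siRNA (log2 fold change 2.01, SE 0.66, unadjusted p = 0.0209, adjusted p = 0.659). *SALL4* was under 2 CPM in both controls (1.47 and 0.83 CPM), so it passed the filter only through the *TRPS1* siRNA libraries (5.18 and 4.13 CPM). Its call therefore adds nothing to those values. It was not tested with over 2 CPM in every library or without either *TRPS1* siRNA library. It had 17 and 41 counts upon *CHD4* siRNA and was too low there to be tested against control.

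Neither alternative remodeller passed the threshold for a rise upon *CHD4* siRNA against control, where *CHD4* fell. *CHD3* was at 247 and 157 CPM in the controls, 221 and 172 CPM upon *TRPS1* siRNA and 183 and 165 CPM upon *CHD4* siRNA, and its log2 fold change upon *CHD4* siRNA was -0.21 (SE 0.38). *CHD5* was at 73.0 and 43.2 CPM, 41.5 and 46.99 CPM, and 61.6 and 79.3 CPM, with a log2 fold change of 0.29 (SE 0.42) upon *CHD4* siRNA. Between the knockdowns *CHD5* was higher upon *CHD4* siRNA by less than 2-fold (log2 fold change 0.68, SE 0.19, unadjusted p = 0.0115, adjusted p = 0.192).

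HDAC1, HDAC2, RBBP4 and RBBP7 also serve other complexes, and 16 genes of SIN3, CoREST, PRC2 and CAF-1 were tested. None rose or fell upon *TRPS1* siRNA, with a median log2 fold change of -0.17, beside -0.02 for all genes. Of all tested genes, 2.7% rose and 3.17% fell upon *TRPS1* siRNA, and 2.6% rose and 2.85% fell upon *CHD4* siRNA. Upon *CHD4* siRNA none rose and *CHAF1B*, a subunit of CAF-1, fell (log2 fold change -1.23, SE 0.49, unadjusted p = 0.0385, adjusted p = 0.792), from 40.4 and 32.1 CPM to 9.80 and 20.9 CPM, a call it kept under 8 of 12 alternatives. The call was lost with library sizes alone (-1.08) and without control replicate 1 (-1.04), *CHD4* siRNA replicate 1 (-0.76) or *CHD4* siRNA replicate 2 (-1.85). Its level upon *TRPS1* siRNA was 11.99 and 25.8 CPM. Between the knockdowns *RCOR2*, a CoREST corepressor, was higher upon *CHD4* siRNA (45.4 and 25.3 CPM, beside 14.1 and 10.4 CPM, log2 fold change 1.54, SE 0.34, unadjusted p = 0.0038, adjusted p = 0.136), and its controls were at 32.2 and 9.20 CPM.

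The position of TRPS1 peaks relative to the subunit genes was taken from the deposited list of 1844 peaks (hg38). None of the 10 genes held a peak or had one within 5 kb of its start, where 878 of 15843 protein-coding genes (5.54%) did. Within 50 kb, 2 of the 10 had one, *MTA2* and *RBBP7*, where 11.4% of coding genes did. The peak nearest to *MTA2* (chr11:62591555-62591827) lay 10.0 kb from its start and 1.39 kb beyond its 3′ end. The peak nearest to *RBBP7* lay 43.8 kb from its start, and one lay 2.97 kb beyond the 3′ end of *MTA1*. *GATAD2A* was 487 kb from the nearest peak. Over the 10 genes the distance from the start to the nearest peak ranged from 10.0 to 926 kb, with a median of 302 kb, and the median over all coding genes was 504 kb. The peak list gives no replicate error, and whether the ChIP replicates were pooled is not given in the sources used here.

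**Figure D5:**
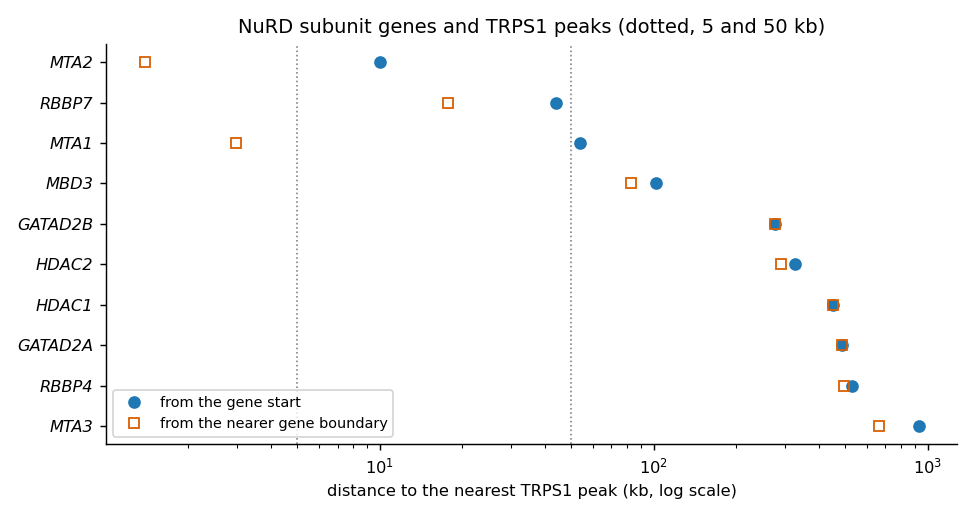
Distance (kb, log axis) from each of the 10 subunit genes (rows) to the nearest TRPS1 peak, measured from the gene start (circles) and from the nearer gene boundary (squares), with dotted lines at 5 and 50 kb. *MTA2* is closest, at 10.0 kb from its start and 1.39 kb from its end, and no circle lies below 5 kb.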

How the data were processed

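Gene counts from 6 RNA-seq libraries (2 each of control, *TRPS1* and *CHD4* siRNA, grouped by their labels) were analysed. The authors depleted ribosomal RNA, trimmed adaptors, mapped the RNA-seq reads with STAR, used HTSeq 0.9.0 for counts per gene and deposited these raw counts. Totals ranged from 10333138 to 14668358 counts. The control values are the same in both deposited tables (0 differences), and genes absent from a table were taken as 0. For ChIP-seq the authors used BWA 0.7.12-r1039 and MACS2 2.1.1 and deposited peak positions only, and per the labels the build is hg38.

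Each pair of groups was compared in edgeR 4.0.16 (R 4.3.3) with the quasi-likelihood F-test on its 4 libraries, with TMM factors, no covariate, a prior count of 0.125 and genes over 2 CPM in at least 2 libraries. All 10 members passed this filter in each comparison. P-values were adjusted over all genes tested (Benjamini-Hochberg). The SE was derived from F and the fold change (absolute log2 value over root F), and intervals are 95% from the same fit. Printed CPM were scaled over all 6 libraries together, so they can differ slightly from the fold changes. Paralog ratios are of raw counts within a library, compared by two-sided exact permutation. Shares per length could not be computed, as no transcript lengths were at hand, and shares of counts are given instead. The fits were also run on simulated data with the same dispersion for all genes and no outlying library. That setting lacks a library like control replicate 1, so it does not bear on the comparisons against control.

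Replicate numbers were not taken to pair the samples, since the labels do not say that they do. The deviations of replicate 1 correlated at 0.0202 (control and *TRPS1* siRNA) and 0.00109 (control and *CHD4* siRNA), with 2 pairs each. Between *TRPS1* and *CHD4* siRNA they correlated at 0.600, so the replicates of the knockdowns may be related, which was not tested. A replicate block was therefore run as an alternative. Genes named are all 10 members, both targets, *MBD2*, *CHD3* and *CHD5*, genes of the further lists with a fold change over 2 at an unadjusted p under 0.05 in any comparison, and the 3 genes most correlated with *MTA2*. The cell type markers are named as a list, and *CDK2AP1* only as an example of its list. The members and lists were chosen with earlier results of these data known. The alternatives were edgeR's likelihood ratio test, DESeq2 1.42.0, RLE size factors, library sizes alone, no filter, over 2 CPM in every library, all 6 libraries in one fit, a replicate block, leaving out each library, and peaks within 50 kb in place of 5 kb. Gene and promoter positions are RefSeq GRCh38.p14, and figures were drawn with matplotlib 3.10.9.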

Additional observations from a re-analysis of the deposited data

Results flagged for a closer look

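The siRNA targets *TRPS1* and *CHD4* were left out of this part. The genes looked at were the members, the other NuRD and shared-complex genes described and the cell type markers. Of these, 6 differed between *CHD4* siRNA and *TRPS1* siRNA at an unadjusted p under 0.05 in edgeR's quasi-likelihood test. Of all tested genes, 15.4% reached that p. *GATAD2A* was higher upon *CHD4* siRNA by 2.04 on the log2 scale (unadjusted p = 2.97e-05) and *RCOR2* by 1.54 (unadjusted p = 0.0038). *CHD5* was higher by 0.68 (unadjusted p = 0.0115). *MTA2* was lower, with a log2 fold change of -0.35 (unadjusted p = 0.0443). Of the markers, *KRT18* was lower with a log2 fold change of -0.52 (unadjusted p = 0.0359) and *VIM* with one of -2.87 (unadjusted p = 0.0259). *VIM* was high in *TRPS1* siRNA replicate 1 alone. At 1.12 and 1.44 CPM upon *CHD4* siRNA, *VIM* passed the filter of 2 CPM only through the *TRPS1* siRNA libraries. None of the 6 reached an adjusted p under 0.05 in this test. The libraries of both knockdowns did not overlap in these 6 genes, but the genes were picked by their p in this same comparison. Of all tested genes, 46.9% did not overlap.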

How the results depend on the processing

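Of the 10 subunit genes, *GATAD2A* kept its direction and its call upon *TRPS1* siRNA and between the knockdowns under all 12 alternatives. In the 8 alternatives that keep all libraries of a comparison, 77 of 80 values upon *TRPS1* siRNA, 80 of 80 upon *CHD4* siRNA and 80 of 80 between the knockdowns kept their direction and side of the threshold. The other 3 were *GATAD2B*, called lower with the likelihood ratio test (-1.76), DESeq2 (-1.77) and no filter (-1.77). Thus 2 members rather than 1 were called upon *TRPS1* siRNA in those fits. Over all genes, 1035, 954 and 1359 were called in the same fits, beside 759 as reported. *CHD3* and *CHD4* turned from -0.04 and -0.03 upon *TRPS1* siRNA to 0.091 and 0.093 with library sizes alone and to 0.021 and 0.021 with over 2 CPM in every library. The causes were not tested.

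With library sizes alone the median of all genes moved to 0.10 and 0.11 against control, and the genes that rose and fell became 490 and 253 upon *TRPS1* siRNA (349 and 410 as reported) and 458 and 222 upon *CHD4* siRNA (336 and 368). With no filter the median was 0.13 in both, and 1359, 1403 and 751 genes were called in the 3 comparisons, beside 759, 704 and 483 as reported. Between the knockdowns 313 genes were called with over 2 CPM in every library and 320 with all 6 libraries in one fit. At an adjusted p under 0.05, the quasi-likelihood test as reported called 0. The likelihood ratio test called 34, 58 and 570 genes and DESeq2 called 37, 50 and 456. The quasi-likelihood test with no filter gave 111 upon *CHD4* siRNA and 424 between the knockdowns. With 50 kb in place of 5 kb, 2 members lay near a peak rather than 0.

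With the replicate number as a block, 1221 genes were called upon *TRPS1* siRNA, and 32, 44 and 3372 genes passed an adjusted p under 0.05. *GATAD2A* was at -1.88 upon *TRPS1* siRNA (adjusted p = 0.0604) and 2.04 between the knockdowns (adjusted p = 3.89e-46), and *MTA2* at -0.35 between them (adjusted p = 0.0164). The block changed no call of a member by fold and unadjusted p. The numbers are not known to pair the samples, although the deviations of replicate 1 correlated at 0.600 between the knockdowns. The block is therefore kept as an alternative.

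Leaving out each library moved the members called from 1 to 3 upon *TRPS1* siRNA and from 0 to 3 upon *CHD4* siRNA, the genes called from 74 to 4304 and from 91 to 3969, and those at an adjusted p under 0.05 from 0 to 6070, from 0 to 3874 and, between the knockdowns, from 0 to 103. The highest counts against control came without control replicate 2. Log2 fold changes that changed sign upon *TRPS1* siRNA were *MTA1* (-0.47 to 0.89), *HDAC2* (-0.037 to 1.20), *RBBP4* (-0.015 to 0.30), *CHD3* (-0.33 to 0.33), *CHD4* (-0.10 to 0.061), *CHD5* (-0.72 to 0.042) and *RCOR2* (-1.40 to 0.41). Upon *CHD4* siRNA they were *MTA1* (-0.45 to 0.92), *GATAD2A* (-0.29 to 0.62), *GATAD2B* (-1.88 to 0.63), *RBBP4* (-0.30 to 0.017), *MBD3* (-0.90 to 0.0019), *CHD3* (-0.50 to 0.17), *CHD5* (-0.040 to 0.72) and *TRPS1* (-0.20 to 0.49). Between the knockdowns they were *MTA1* (-0.13 to 0.17), *MTA3* (-0.13 to 0.012), *HDAC1* (-0.14 to 0.038), *HDAC2* (-0.029 to 0.38), *RBBP7* (-0.054 to 0.36), *MBD3* (-0.050 to 0.14), *CHD3* (-0.32 to 0.018) and *CHAF1B* (-0.94 to 0.39). Differences in log2 paralog ratio that changed sign were *MTA3* to *MTA1* (-0.70 to 1.06 upon *TRPS1* siRNA, -0.78 to 0.98 upon *CHD4* siRNA, -0.30 to 0.14 between them), *HDAC2* to *HDAC1* (-0.34 to 0.76 and -0.12 to 0.99 against control), *GATAD2B* to *GATAD2A* (-0.20 to 1.40 upon *TRPS1* siRNA) and *MBD3* to *MBD2* (-0.32 to 0.40 upon *TRPS1* siRNA). The *MTA2* to *MTA1*, *MTA3* to *MTA2* and *RBBP7* to *RBBP4* differences kept their sign without any single library.

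*SALL4* rests on 11 to 63 counts per library, and the spread of *GATAD2B* in the controls (302 and 52 counts) is that of control replicate 1. With 2 libraries per group, a p that misses the threshold does not show that levels were alike.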
